A study of Mus musculus with 2 samples.

Results

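Neural microRNA (miRNA) genes in the embryonic mouse kidney are described here: Mir132, Mir212, Mir137, Mir128-1, Mir128-2, Mir138-1, Mir138-2, Mir9-2 and Mir9-3. These 9 genes were chosen by name, as genes known from neurons and neural progenitors, out of 1973 miRNA genes in the deposited files. Earlier results of these data were known when the choice was made. Total RNA came from kidneys of healthy B6NCrl embryos at 15.5 days of development, with no treatment or genotype named in the labels, and the fraction shorter than 30 nt was sequenced. The 2 libraries form a single group, labelled as biological replicates. Each is a pool of both sexes, from 78 embryos in replicate 1 and 62 embryos in replicate 2. There is no second tissue, age or condition, so the levels are a description of this organ at this age, and the only comparison possible is between the libraries.

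A miRNA gene is transcribed as a long primary RNA, from which a hairpin is cut and then trimmed to a short duplex. One arm of the duplex enters an Argonaute protein and guides it to messenger RNAs, mainly through the seed, the bases 2 to 8 from its 5′ end. In the nervous system miR-132 and miR-212 are induced by neuronal activity through the transcription factor CREB, and miR-132 promotes dendrite growth. miR-137 acts in neuronal maturation, miR-128 limits neuronal excitability, miR-138 limits the size of dendritic spines, and miR-9 acts in neural progenitors and in neurogenesis. The developing kidney is entered by axons along its arteries, whereas the cell bodies of those neurons lie in ganglia outside it. In bulk tissue, fewer cells that carry a miRNA and less of it per cell cannot be told apart.

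The arms by which these miRNAs are best known fall into 5 seeds. They are shown because arms held by several genes decide which members the files can count. All 9 members matched RefSeq (GRCm38.p6), from which the sequences are taken, 5′ to 3′, with the seed in capitals.
miR-132-3p: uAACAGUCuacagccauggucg
miR-212-3p: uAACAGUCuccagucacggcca
miR-137-3p: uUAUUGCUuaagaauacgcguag
miR-128-3p: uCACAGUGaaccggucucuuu
miR-138-5p: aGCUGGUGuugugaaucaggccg
miR-9-5p: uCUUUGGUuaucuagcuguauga
The arms miR-132-3p and miR-212-3p shared the seed AACAGUC and 17 of 22 bases, yet the longest stretch shared by the hairpins was 10 nt. No other miRNA gene of the RefSeq table carries that seed. The arm miR-128-3p lies unchanged in 2 hairpins, Mir128-1 and Mir128-2, and miR-138-5p in 2, Mir138-1 and Mir138-2. Both miR-9 arms lie in Mir9-1, Mir9-2 and Mir9-3.

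Reads that match several loci were set apart by the authors and belong to no gene's count. They made up 27.1% of the reads of replicate 1 and 26.6% of replicate 2. The members were therefore split into those with a near-identical copy and those without. Mir132, Mir212 and Mir137 have no 20-nt stretch in common with any miRNA hairpin at another locus and carry both arms in 1 hairpin, so these 3 genes have no such copy. The other 6 members do, and their counts hold only reads that the authors placed at a single locus. The second arms of the Mir128 and Mir138 genes differ between copies, as shown here with each difference and each unpaired end base in capitals.
miR-128-1-5p: CggggccgUAgcacuguCUga
miR-128-2-5p: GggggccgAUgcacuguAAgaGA
miR-138-1-3p: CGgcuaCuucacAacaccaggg
miR-138-2-3p: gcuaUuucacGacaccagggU
The miR-128 arms differed at 5 of 21 aligned bases and the miR-138 arms at 2 of 20. Copies of miR-9 had no such arm. Their hairpins are shown with the mature arms in capitals.
Mir9-2 hairpin: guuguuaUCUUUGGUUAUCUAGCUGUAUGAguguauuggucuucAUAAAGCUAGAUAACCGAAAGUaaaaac
Mir9-3 hairpin: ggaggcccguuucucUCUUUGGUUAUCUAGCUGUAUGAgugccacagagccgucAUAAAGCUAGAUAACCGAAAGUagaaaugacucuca
The longest stretch shared by these hairpins was 26 nt, which covers the whole 5p arm and the bases just after it. Of the 20-nt windows of the hairpin, 28 of 53 in Mir9-2 and 13 of 71 in Mir9-3 occur in another miRNA gene. The same held for 4 of 51 windows in Mir128-1, 4 of 57 in Mir128-2, 5 of 80 in Mir138-1 and 5 of 52 in Mir138-2.

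Levels are given as CPM, the reads on the gene's own strand per 1000000 such reads over all miRNA genes. The libraries held 7434182 and 5863293 such reads, so that 1 read is worth 0.135 and 0.171 CPM. Where no read was found, the level could still be that of 3 counts, which is 0.404 CPM in replicate 1 and 0.512 CPM in replicate 2. The intervals given are 95% exact (Clopper-Pearson) binomial intervals, and they and such limits cover counting error only. Each read is shorter than 30 nt and spans about 1 arm, so CPM was compared between genes without a correction for length. How evenly different sequences were captured in the libraries was not tested, and the intervals do not cover it. Dividing by the length of the annotated hairpin left all 9 members in the same order.

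The 9 genes together held 0.0681% of the miRNA reads in replicate 1 (95% interval 0.0662 to 0.0700) and 0.0898% in replicate 2 (0.0874 to 0.0923), a mean of 0.0789% ± 0.0154 (SD, n = 2). The 3 genes with no near-identical copy made up most of this, at 0.0538% and 0.0670%. The 6 genes with copies held 0.0143% and 0.0229%, which can be too low for the reason given above. Of the 9 members, 8 reached 1 CPM in both libraries, against 20% of the 1973 genes in the files. Mir9-3 only just did, at 1.02 CPM from 6 reads in replicate 2. With both strands summed, or with all reads in the file as the denominator, 7 members did. At 100 CPM in both libraries there were 2, Mir132 and Mir137, against 8.77% of genes. The members were chosen with earlier results of these data known, so these shares are a description only. All reads of the members lay on the gene's own strand, with 0 on the opposite strand.

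Mir132 was the highest member in uniquely placed reads. It lies at chr11:75173682-75173747 of mm10 on the plus strand, in an intron of the non-coding gene 1700016P03Rik. It had 2777 reads in replicate 1 and 2457 in replicate 2, or 374 CPM (95% interval 360 to 388) and 419 CPM (403 to 436). This made up 54.9% and 46.6% of all reads of the members and placed Mir132 at rank 115 of 1973 genes. Its spread between the libraries was the smallest in proportion among members with reads, at 8.12% of the mean of 396 CPM. By distance in log2(CPM + 1) over the 2 libraries, the genes most like it in level were Mir421 (349 and 402 CPM), Mir223 (393 and 393 CPM), a myeloid miRNA, and Mir669o (385 and 454 CPM).

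Mir212 lies 203 nt upstream of Mir132 in the same intron, at chr11:75173388-75173478. miR-212 and miR-132 are known to be cut from a shared primary transcript, but the levels of the 2 genes stood far apart. Mir212 had 281 and 193 reads, or 37.8 and 32.9 CPM (35.4 ± 3.45, SD, n = 2), at rank 229. The ratio of Mir132 to Mir212 was 9.88 in replicate 1 (95% interval 8.74 to 11.2) and 12.7 in replicate 2 (10.99 to 14.8). Neither gene has a near-identical copy, and the intervals of the ratios overlap. Genes with the shared seed AACAGUC summed to 411 and 452 CPM, over both arms, as the counts do not separate the arms of a hairpin. The only other seed above whose genes have no near-identical copy was UAUUGCU of Mir137, a gene at 126 and 218 CPM. These are totals of genes, not levels of the arms that carry the seeds. The sums for the seeds of miR-128, miR-138 and miR-9 lack the reads that match several genes, so they were not ranked with these.

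Mir137, at chr3:118433857-118433929 on the plus strand within an exon annotated to the non-coding gene Gm26871, came second in uniquely placed reads. It had 939 and 1277 reads, or 126 CPM (118 to 135) and 218 CPM (206 to 230), at rank 150. The value in replicate 2 was 1.72 times that in replicate 1, and the counting intervals lie far apart. Even so, both values lay below both values of Mir132 and above both values of the next member, Mir128-1.

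Mir128-1 and Mir128-2 sit in introns of protein-coding genes. Mir128-1 is in R3hdm1, at chr1:128202361-128202430 on the plus strand, and Mir128-2 in Arpp21, which encodes a cyclic-AMP-regulated phosphoprotein of neurons, at chr9:112118636-112118711 on the minus strand. Mir128-1 had 482 and 487 reads, or 64.8 and 83.1 CPM (73.9 ± 12.9, SD, n = 2). Mir128-2 was lower in both libraries, with 133 and 80 reads, or 17.9 and 13.6 CPM (15.8 ± 3.00, SD, n = 2). The ratio of Mir128-1 to Mir128-2 was 3.62 in replicate 1 (95% interval 2.99 to 4.42) and 6.09 in replicate 2 (4.80 to 7.81), and these intervals do not overlap. Since the miR-128-3p arm is in both hairpins, the ratio holds for uniquely placed reads only and is not one of transcription or of the main mature miRNA.

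The Mir138 genes were close to each other in both libraries. Mir138-1 lies at chr9:122682876-122682974, within an exon annotated to the transcribed pseudogene Gm47135, and Mir138-2 at chr8:94324311-94324381, within an exon of the non-coding gene C78859, both on the plus strand. Mir138-1 had 180 and 351 reads, or 24.2 and 59.9 CPM. Mir138-2 had 248 and 416 reads, or 33.4 and 70.9 CPM. Both were thus more than 2 times as high in replicate 2, while the ratio of Mir138-1 to Mir138-2 was 0.726 (95% interval 0.596 to 0.883) and 0.844 (0.730 to 0.975), with overlapping intervals. As the miR-138-5p arm is in both hairpins, these values too are for uniquely placed reads.

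The miR-9 genes were at the bottom of the order. Mir9-3, at chr7:79505264-79505353 in an intron of the non-coding gene Mir9-3hg, had 19 and 6 reads, or 2.56 CPM (95% interval 1.54 to 3.99) and 1.02 CPM (0.376 to 2.23). Mir9-2, at chr13:83738814-83738885 over an exon of the lincRNA C130071C03Rik, had 0 reads in both libraries. Both arms of miR-9 match several genes, so these low counts do not show how much miR-9 the kidney held. Mir9-1, which carries the same arms, was not analysed here. Gm25641, which overlaps the Mir9-1 hairpin on the other strand, had 3 reads on its opposite strand in each library.

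Ordered by mean, the members ran Mir132, Mir137, Mir128-1, Mir138-2, Mir138-1, Mir212, Mir128-2, Mir9-3 and Mir9-2. The values of the 2 libraries overlapped between Mir128-1 and Mir138-2, between Mir138-2 and Mir138-1, and between Mir138-1 and Mir212. Within each library, though, Mir128-1 stood above Mir138-2 (64.8 against 33.4 CPM in replicate 1, 83.1 against 70.9 CPM in replicate 2). Mir138-2 likewise stood above Mir138-1 in both. Mir138-1 was below Mir212 in replicate 1 (24.2 against 37.8 CPM) and above it in replicate 2 (59.9 against 32.9 CPM). The remaining neighbours in the order had ranges that did not overlap. This order is one of uniquely placed reads, and the 6 genes with copies may stand too low in it. Among the 3 genes with no near-identical copy the order was Mir132, Mir137 and Mir212, with ranges that did not overlap.

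**Figure D1:**
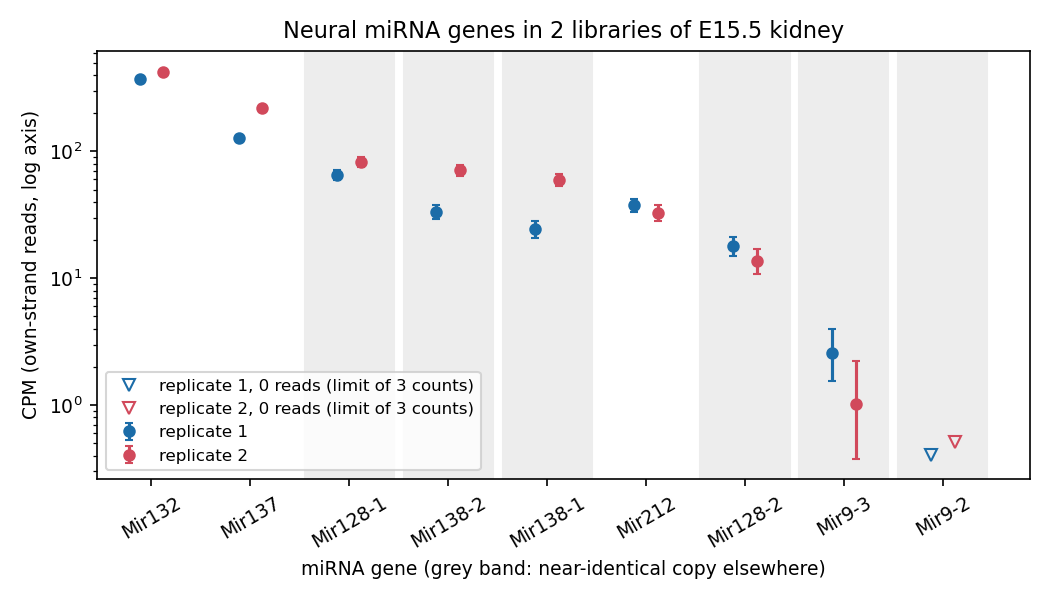
CPM of each neural miRNA gene (log axis) in replicate 1 and replicate 2, with 95% exact binomial intervals, and open triangles at the limit of 3 counts where no read was found. Mir132 and Mir137 stand above 100 CPM in both libraries, Mir128-1 to Mir128-2 lie between 13.6 and 83.1 CPM, and Mir9-2 has 0 reads.

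**Figure D2:**
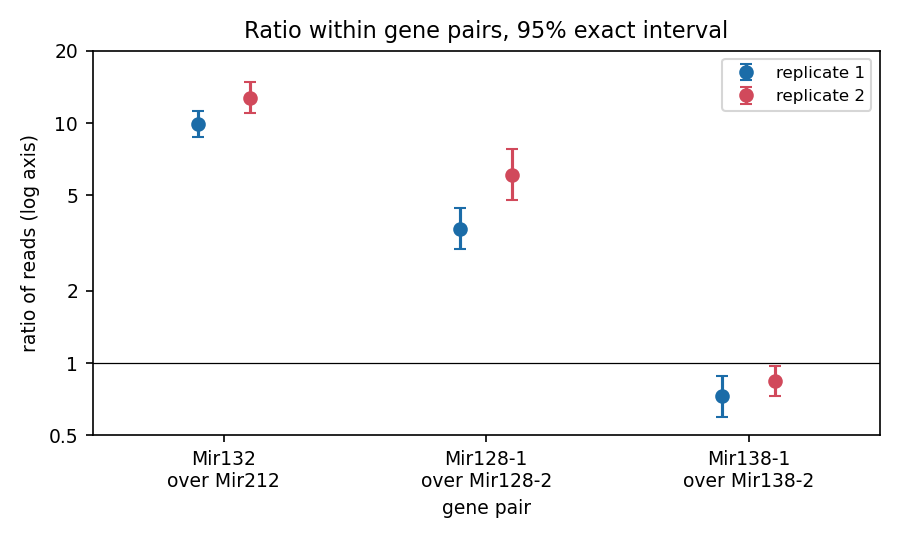
Ratio of reads (log axis) within 3 pairs of genes in each library, with 95% exact binomial intervals. Mir132 exceeded Mir212 by 9.88 and 12.7 times, Mir128-1 exceeded Mir128-2 by 3.62 and 6.09 times, and Mir138-1 stood below Mir138-2 at 0.726 and 0.844.

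The libraries were then compared gene by gene, to ask how far the members' levels differed between the pools. Each gene's split of reads between the libraries was set against the split of their totals with an exact binomial test, two-sided, and p-values were adjusted by Benjamini-Hochberg over the 378 genes whose mean count reached 10. Of the members 8 were tested and 5 passed at an adjusted p under 0.05, all 5 of them higher in replicate 2. Among all genes tested 55.8% passed, with 40.2% higher and 15.6% lower in replicate 2, so 5 of 8 is near the background. The members' median log2 ratio of replicate 2 over replicate 1 was 0.26, against 0.15 over all 378 genes, and their median absolute log2 ratio was 0.59, against 0.28. This test covers counting error only and compares these 2 libraries, not conditions.

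Mir138-1 differed most among the members that passed, with a log2 ratio of 1.31 (95% interval 1.04 to 1.57, adjusted p = 1.29e-23, exact binomial test). Mir138-2 followed at 1.09 (0.86 to 1.32, adjusted p = 5.29e-21). These were the 2 members that passed with a difference of at least 2-fold, which 6.08% of all genes tested did. Mir137 had a log2 ratio of 0.79 (0.66 to 0.91, adjusted p = 1.69e-36). These 3 genes kept their direction and their call when the libraries were scaled by TMM or by DESeq2 size factors, which moved every log2 ratio by -0.13 and -0.16. Mir138-2 then stood at 0.96 and 0.93, which is below 2-fold.

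The other members depended on the scaling. Mir128-1 had a log2 ratio of 0.36 (adjusted p = 0.000273), which with DESeq2 size factors was 0.20 (adjusted p = 0.0560). Mir132 had 0.17 (adjusted p = 8.70e-05), close to the median of all genes, and with TMM and DESeq2 it stood at 0.04 and 0.01 (adjusted p = 0.439 and 0.922). Mir212 at -0.20, Mir128-2 at -0.39 and Mir9-3 at -1.32 did not pass (adjusted p = 0.220, 0.1005 and 0.0769), and all 3 were lower in replicate 2 and passed with either scaling. When the spread between the libraries was counted as well, by edgeR's exact test with the common dispersion of these same libraries (a biological coefficient of variation of 0.246), 0 of 8 members passed, against 8 of 378 genes. The dispersion of that test was estimated from the same differences that it tests, so few genes can pass. It therefore cannot decide whether the members differ between the pools.

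**Figure D3:**
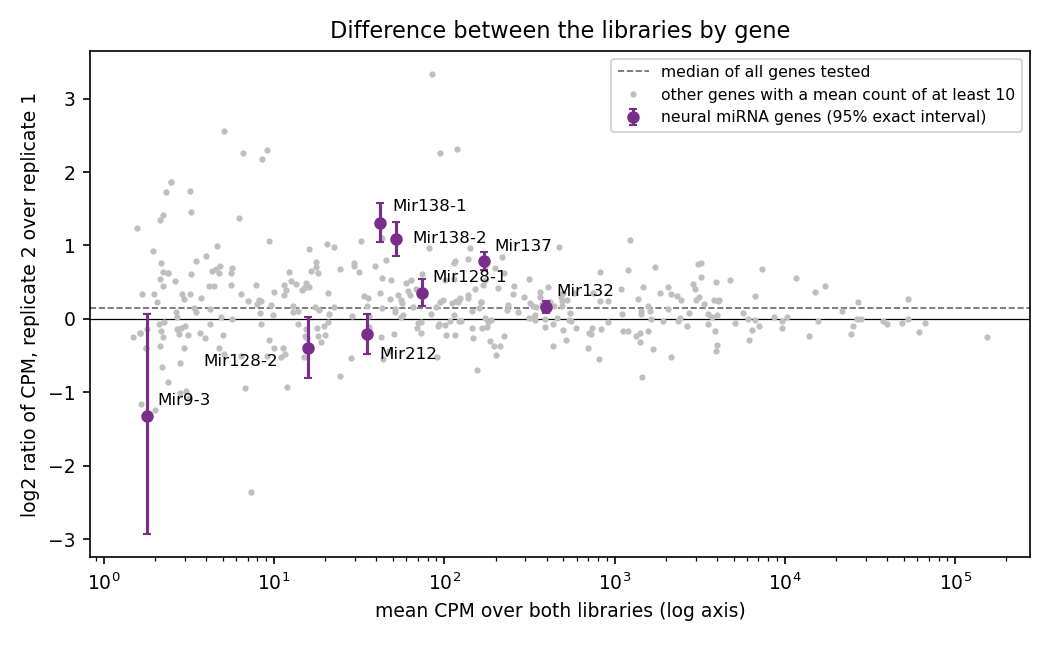
Log2 ratio of CPM, replicate 2 over replicate 1, against mean CPM (log axis) for the 378 genes tested, with the neural miRNA genes and their 95% exact intervals in purple. Mir138-1, Mir138-2 and Mir137 lie above the dashed median of all genes at 0.15, Mir132 lies on it, and Mir212, Mir128-2 and Mir9-3 lie below it.

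Markers of some other tissues, and genes listed for the kidney itself, also differed between the libraries. The background by the exact binomial test was 40.2% of genes higher and 15.6% lower in replicate 2. The 4 endocrine and chromaffin markers, Mir375, Mir7-1, Mir7-2 and Mir7b, had summed levels of 1343 and 1975 CPM in replicates 1 and 2, and 4 of 4 were higher in replicate 2. Mir122, the miRNA of hepatocytes, stood at 319 and 628 CPM and was higher too. The 4 blood markers, with Mir223 and Mir451a leading, summed to 742 and 872 CPM, and 1 of them, Mir451a, passed. With TMM or DESeq2 size factors these calls held, and Mir223 was lower in replicate 2. No marker of these 3 lists was at 0. The 10 genes listed for the kidney were all present and summed to 283758 and 257443 CPM. Most of this sum was Mir10a, at 167241 and 140739 CPM, and Mir10b, at 65318 and 57839 CPM. All 10 passed, 4 higher in replicate 2 (Mir30a, Mir30d, Mir30e and Mir200c) and 6 lower (Mir10a, Mir10b, Mir192, Mir200b, Mir204 and Mir429). Their log2 ratios ran from -0.69 for Mir192 to 0.56 for Mir30a, and Mir200c, at 0.05, was lower with either scaling. The part of these lists in the higher Mir137 and Mir138 values of replicate 2 was not tested.

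Most of the neuronal markers had few uniquely placed reads. Only Mir137 (126 and 218 CPM) and Mir153 (6.46 and 7.67 CPM) share no 20-nt stretch with a hairpin elsewhere. For the rest of this list, few reads do not show a low level. Of 10 listed genes 9 have a line in the files, and 5 of these reached 1 CPM in both libraries, with Mir137 making up most of the sum of 145 and 243 CPM. Of the 5 tested, 2 were higher in replicate 2, Mir137 and Mir129-2, and 0 were lower, while with TMM or DESeq2 size factors Mir9-3 was lower. Without the members, the sum over Mir129-1, Mir129-2, Mir153 and the Mir124a genes was 16.5 and 24.6 CPM. Mir129-2 went from 1.48 to 8.70 CPM and passed, whereas Mir129-1 (8.61 and 8.19 CPM) and Mir153 (6.46 and 7.67 CPM) did not. Mir129-1 and Mir129-2 share sequence, so their counts can be too low. Mir124a-1, Mir124a-2 and Mir124a-3, the genes of the miRNA most abundant in neurons, were all at 0 reads in both libraries. They share sequence with each other, so the reads of miR-124 can be among those set apart, and a count of 0 does not show that it was absent. The markers of oligodendrocytes and Schwann cells, Mir338, Mir219a-1 and Mir219a-2, summed to 73.0 and 79.3 CPM, with 0 of 3 past the test, against 55.8% of all genes, and none at 0. Mir219a-1 and Mir219a-2 have near-identical copies, so this sum too can be low.

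Beyond the members, 25 other miRNA genes known from neural or sensory tissue were listed, and 24 of them have a line in the files. The highest were Mir182 (2232 and 2665 CPM) and Mir183 (2369 and 2328 CPM), which with Mir96 (866 and 789 CPM) form a cluster on chromosome 6 known from hair cells and photoreceptors. Mir708 stood at 1562 and 1680 CPM and Mir330 at 143 and 196 CPM. Mir182, Mir183, Mir708 and Mir96 thus exceeded Mir132 in both libraries, whereas Mir330 was close to Mir137. Mir708 shares sequence with another miRNA gene, so its count can be too low, and the other 4 do not. Between the libraries 7 of the 20 genes tested passed by the exact binomial test, 6 higher and 1 lower in replicate 2, against 55.8% of all genes, and their median log2 ratio was 0.10. The split became 5 higher and 2 lower with TMM, and 5 and 5 with DESeq2 size factors. At least 2-fold differences that passed were found in Mir129-2 (1.48 and 8.70 CPM, from 11 and 51 reads) and Mir184 (3.50 and 9.04 CPM, from 26 and 53 reads), which were named after their values were seen.

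**Figure D4:**
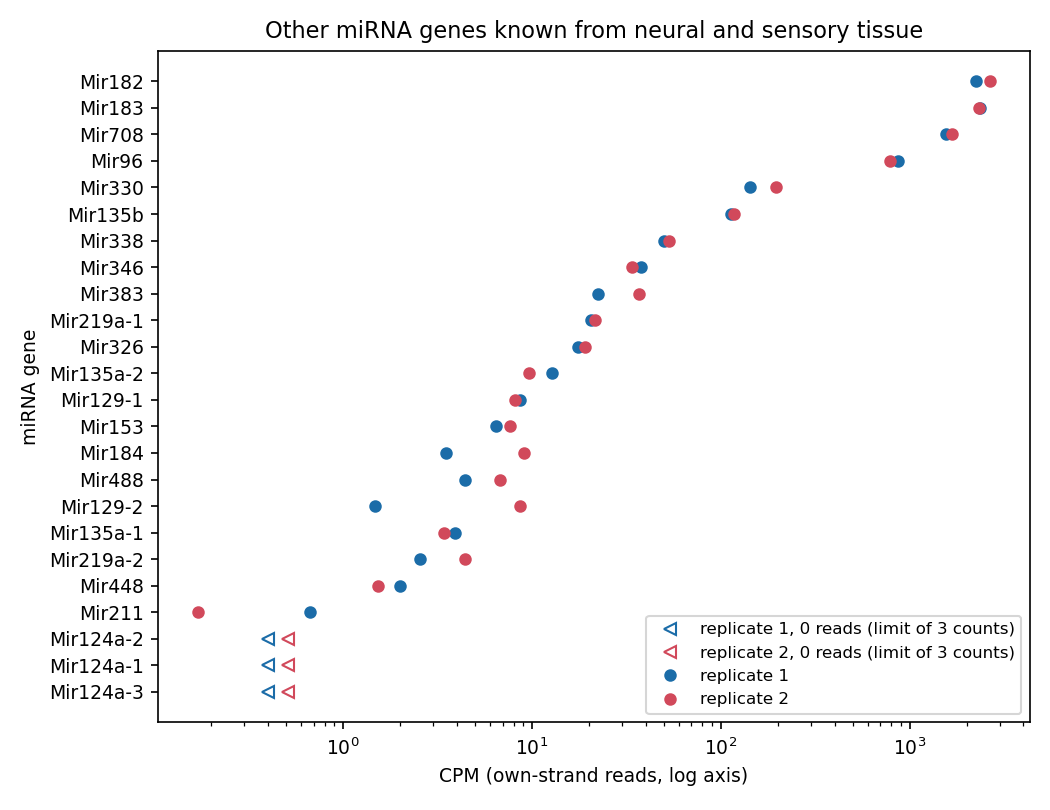
CPM (log axis) in replicate 1 and replicate 2 of 24 other miRNA genes known from neural and sensory tissue, with open triangles at the limit of 3 counts where no read was found. Mir182, Mir183 and Mir708 lie at 1562 CPM or above in both libraries, while the 3 Mir124a genes have 0 reads.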

How the data were processed

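The deposited files give raw counts for each miRNA gene: reads of its own strand, reads of the opposite strand, and their sum. Per the notes that accompany them, the authors counted alignments to mm10 with the GENCODE M4 annotation. Which aligner and counting program they ran is not given in the sources used here. Lines that name no gene were kept out of library sizes. They hold multimapping reads (27.1% and 26.6%), reads with no feature (2.57% and 4.05%) and unmapped reads (17.7% and 19.7%).

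Own-strand counts were scaled to CPM over all 1973 genes. Names, positions and shared 20-nt stretches were taken from GENCODE M21, also on GRCm38, and matched by identifier without version (1894 genes), and printed sequences from RefSeq. Sharing was searched among M21 miRNA hairpins on both strands, since no genome sequence was used here. The design had named genome matches of the arms. Host genes are those annotated on the same strand.

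The members and lists were chosen with earlier results of these data known. Named genes are the members, the 3 genes nearest to Mir132 in log2(CPM + 1), the 5 highest of 25 other neural genes, those of them with 0 reads, genes sharing a member's seed, and the listed markers. The 2 libraries were compared by an exact binomial test, two-sided, with Benjamini-Hochberg adjustment over the 378 genes whose mean count reached 10. It was tried on simulated libraries of 386 genes with counting noise only, 200 of the genes changed in balanced directions. There it called 94% of 2.5-fold and 100% of 4-fold changes and 15 of 186 unchanged genes. These rates cannot be carried over to the real libraries, which hold spread beyond counting noise. The libraries differed by far more than sampling noise (chi-square over degrees of freedom of 198, with 456 of them), and Pearson's r of log2(CPM + 1) was 0.993 across 729 genes with a read. No p is given, as genes are not replicates. Alternatives were other scalings, denominators, filters and thresholds, both strands summed, each replicate left out, and edgeR's exact test. Python 3.11.15, scipy 1.17.1, pandas 2.3.3, numpy 2.4.6, matplotlib 3.10.9, R 4.3.3, edgeR 4.0.16 and DESeq2 1.42.0 were used.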

Additional observations from a re-analysis of the deposited data

Results flagged for a closer look

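Opposite-strand reads entered the results above only where both strands were summed. They exceeded the 3 counts that a count of 0 allows in both libraries at 3 of the other neural genes and at none of the 9 members. The share of all genes that did so was not counted, so these counts are a description only. Genes outside these lists had such reads too, for example Mir203 with 57 and 37 and Mir126a with 39 and 30. Over all genes they made up 2.16% and 2.33% of the gene reads in replicates 1 and 2. Mir708 had 24 such reads in replicate 1 and 28 in replicate 2. Mir219a-1 had 10 and 4, and Mir183 had 4 and 5. There is no control sample to set these against, and their source was not tested.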

How the results depend on the processing

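With all reads in the file as the denominator, the summed share of the 9 members fell to 0.0393% and that of the 3 members with no near-identical copy to 0.0301%, because the denominator is larger. Leaving Mir10a, the most abundant gene, out of the denominator put the latter at 0.0713%. At a threshold of 100 CPM, 2 members were counted in place of 8. With a difference of at least 2-fold required, 23 genes and 2 members differed between the libraries, and with edgeR's exact test 8 genes and 0 members did. The split of all genes that differed, 152 higher and 59 lower in replicate 2, became 109 and 111 with TMM and 103 and 120 with DESeq2 size factors. That of the members, 5 and 0, became 4 and 3 with TMM and 3 and 3 with DESeq2. Of the other alternatives of the main results, 23 kept their value within the spread of the libraries, or their count within 1.5 times. Several of these could hardly have moved, so the 23 do not measure stability. Leaving out a replicate, or asking for any read, cannot lower the 8 of 9 members detected. Summing the strands changes the members' share only through the denominator, as they had 0 opposite-strand reads. TMM and DESeq2 size factors kept the joint size of the libraries, so they hardly move a mean share. A further 16 say nothing about stability: with 2 libraries, a mean without 1 of them always lies within the SD, and the ratios between members cannot change with the strands summed. With each replicate left out, the members' share ranged from 0.0681% to 0.0898%. Of 47 alternatives for the members' log2 ratios, 33 kept the call, 8 lost it and 6 gained it. The direction changed for 0 members with TMM or DESeq2 size factors, and filters on low counts cannot move it. No paired analysis was possible because the libraries form 1 group. With 2 libraries, the SD of each level is itself uncertain. The dispersion in edgeR's test came from the same differences that it tests, so its counts are low by design.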
